A study of Mus musculus with 15 samples.

Results

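The genes described here are the EGF receptor gene Egfr, 5 of the genes for its ligands (Areg, Ereg, Hbegf, Btc and Tgfa), and 4 genes of other growth factor systems that act on epithelium (Fgf7, Fgf10, Hgf and Met). The rule names these 10 genes and uses no measured value of them. All 16 probes on the array whose RefSeq accession belongs to one of these genes were taken. Of the 10 genes, 9 had a probe that passed the filter on dim signals, among 34401 genes and unnamed probes tested in all (19289 of them with a gene symbol). Ereg did not pass. The lungs came from mice of the outbred stock Crlj:CD1(ICR), all female, bought at 9 weeks and labelled as 11 weeks old. For 7 days they ate a diet with permethrin, a pyrethroid insecticide, at 20, 500, 2500 or 5000 ppm, or the control diet with 0 ppm, with 3 mice per diet labelled as biological replicates. RNA of each lung was hybridised to a 1-colour Agilent array, which gives 15 arrays.

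The EGF receptor is a receptor tyrosine kinase on the surface of epithelial and other cells. Its ligands are made as membrane-bound precursors, are released by proteases such as ADAM17, and bind the receptor, which then pairs and signals through RAS and ERK. In lung this system is known for its part in repair and growth of the airway and alveolar epithelium. FGF7 and FGF10 are made mostly by mesenchymal cells and act on an epithelial splice form of FGFR2. HGF, also mesenchymal, acts on the MET receptor of epithelial cells.

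Areg and Met are the genes for which promoter sequence is shown, because only they had a match to a searched motif wholly before the gene start. RefSeq promoter windows (mouse build GRCm38.p6, 250 bases before to 50 after the start of the gene) were matched by symbol and searched for 8 of the 10 genes (Ereg and Hbegf were not searched), in 9 windows since Hgf has 2. They were searched on both strands for TGANTCA, a binding motif of the AP-1 factors that act downstream of ERK, for TGACGTCA, the cAMP response element, and for TGACNNNGC, the core of the antioxidant response element. The stretch before the Areg start is chr5:91139512-91139571, plus strand, with the cAMP response element in capitals. The stretch before the Met start is chr6:17463877-17463935, plus strand, with the AP-1 motif in capitals.
Areg: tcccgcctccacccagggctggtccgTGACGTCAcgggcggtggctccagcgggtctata
Met: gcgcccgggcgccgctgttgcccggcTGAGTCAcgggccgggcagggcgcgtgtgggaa

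The Areg match began 61 bases before the gene start, and the Met match 54 bases before it. An antioxidant response core on the minus strand of the Met window overlapped the AP-1 match, and a window of Hgf also held 1 such core. Of all 32851 RefSeq windows of this length, 1.79% held the cAMP response element, 7.81% the AP-1 motif and 12.4% the antioxidant response core. These matches describe letters in a window and no binding was measured. Areg also stands in a run of EGF family genes: Epgn, Ereg, Areg and Btc follow each other on chromosome 5 with no other protein-coding gene between them in the RefSeq order.

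Values below are log2 signals scaled to the 75th percentile of their own array, so 0 is that percentile, and a difference of 1 is a doubling. Levels of different probes were not compared, because probes differ in brightness for the same amount of RNA. The values come from bulk lung, in which fewer cells of a type and less RNA per cell cannot be told apart. Between 70.7% and 87.0% of spots were well above background on an array, and no spot was saturated. The slides and the diets largely coincided: all control and 20 ppm arrays and 500 ppm mice 1 and 2 were on one slide, and 500 ppm mouse 3 with all 2500 and 5000 ppm arrays on the other. No within-slide value exists for 2500 or 5000 ppm against control. One library stood apart at the dim end. For probes not well above background on any of the 15 arrays, the median was -5.73 in 500 ppm mouse 3. It lay between -7.77 and -6.47 in the other arrays. The array of 2500 ppm mouse 3, at -6.47, had 274 flagged spots, against 104 to 145 on the others. It also had the lowest 75th percentile before scaling, 7.98 in log2. The extraction status in the scanner header was 1 for these arrays of 500 and 2500 ppm mouse 3, and 0 for all others.

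None of the 9 measured genes passed an adjusted p of 0.05 at any dose in the limma fit. The count was 0 of 9 at 20, 500 and 2500 ppm against control, where 0% of all genes passed, and 0 of 9 at 5000 ppm, where 0.0407% of all genes passed. It was also 0 of 9 for 5000 against 2500 ppm (0% of all genes), for the trend over the ranks of the 5 diets (0.142% of all genes) and for any difference among diets by the F test (0.0407%). At an unadjusted p under 0.05, 1 of the 9 passed, Egfr at 2500 ppm, where 8.49% of all genes did. In the other comparisons 0 of 9 passed unadjusted, against 1.48% of all genes at 20 ppm, 2.84% at 500 ppm, 5.14% at 5000 ppm, 5.04% for 5000 against 2500 ppm, 9.22% for the trend and 5.35% for the F test. Dosed and control mice did not overlap for 1 of the 9 genes at 20 ppm (5.85% of all genes), 0 at 500 ppm (6.68%), 2 at 2500 ppm (13.6%) and 0 at 5000 ppm (17.9%), and the 5000 and 2500 ppm mice did not overlap for 1 (15.2%). The genes were Btc at 20 ppm, Egfr and Btc at 2500 ppm, and Egfr between the high doses. For scale, Nqo1, a quinone reductase gene and a standard target of the NRF2 factor, differed from control by 2.22 ± 0.21 (SE, 3 mice against 3) at 5000 ppm, with an adjusted p of 0.000963 in the limma fit.

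The fitted differences of the 9 genes from control lay between -0.50 and 0.21 at 20 ppm, -0.48 and 0.24 at 500 ppm, -0.38 and 0.50 at 2500 ppm, and -0.34 and 0.21 at 5000 ppm. Their medians were 0.03, 0.11, -0.05 and 0.12 in that order, beside -0.03, 0.12, 0.05 and 0.07 for all genes. Without control mouse 1, the median of the 9 was -0.17 at 2500 ppm and -0.08 at 5000 ppm. The medians of all genes were then -0.01 and 0.02. With 3 mice per diet the precision was limited and unequal. At 5000 ppm the 95% interval of Met, the receptor of HGF, ran from 0.848-fold to 1.40-fold of control, and that of the ligand gene Areg from 0.541-fold to 2.31-fold. To be called at 5000 ppm beside the 14 genes that were, a difference of 1.09 would have been needed for Met and 3.16 for Areg.

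**Figure D1:**
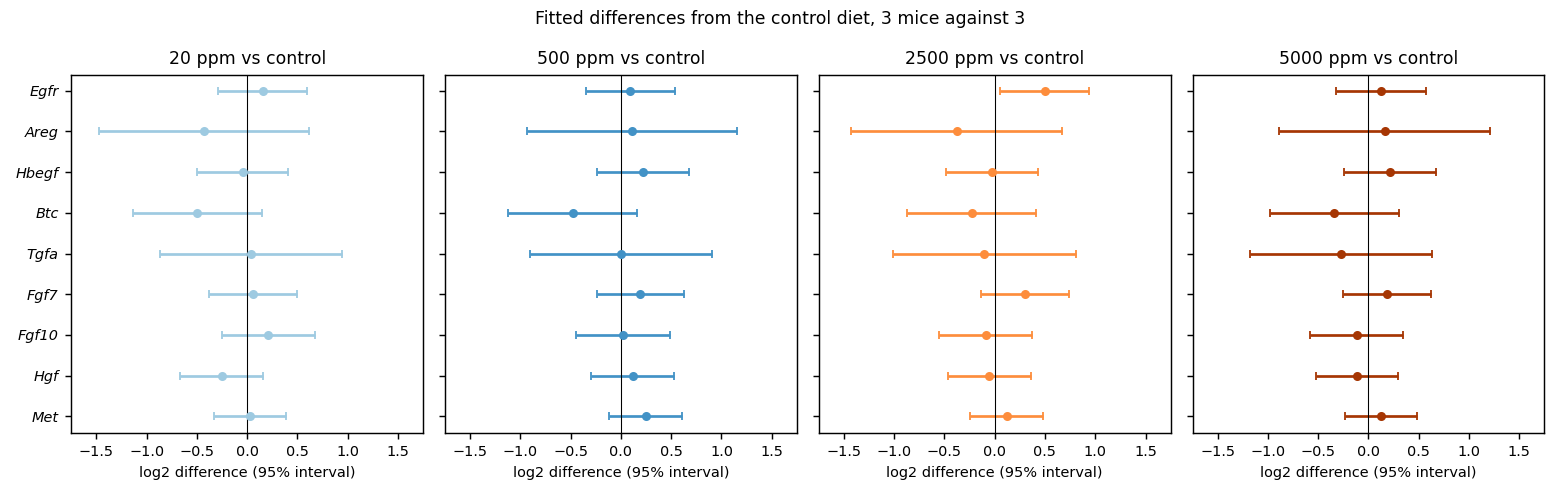
Fitted log2 difference from the control diet for the 9 measured genes (rows) at each dose (panels), with points for the limma estimate and bars for its 95% interval, 3 mice against 3. The interval of Egfr at 2500 ppm, 0.05 to 0.94, is the one interval that does not include 0, and those of Areg and Tgfa are the widest.

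Egfr encodes the receptor. Its brightest probe read 0.67, 1.39 and 1.20 in control mice 1, 2 and 3, and 0.97, 1.30 and 1.45 in the 20 ppm mice in the same order. It read 1.19, 1.23 and 1.11 at 500 ppm, 1.82, 1.47 and 1.45 at 2500 ppm, and 0.998, 1.21 and 1.42 at 5000 ppm. Control mouse 1 was the lowest of the 15 lungs, every 2500 ppm mouse lay above every control, and the 5000 ppm mice overlapped the controls.

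The difference of Egfr at 2500 ppm was 0.50 ± 0.20 (SE, 3 against 3), or 1.41-fold, with an unadjusted p of 0.0312 and an adjusted p of 0.513 in limma. Non-overlap in that direction was found for 8.83% of all genes. Without control mouse 1, the difference was 0.29 (unadjusted p = 0.154 in limma), and with slide as a fixed term it was 0.60 ± 0.38 (SE; unadjusted p = 0.141 in limma). At 5000 ppm the difference from control was 0.13 (95% interval -0.32 to 0.57). All 5000 ppm mice lay below all 2500 ppm mice for this probe, as did 7.1% of all genes, and the difference between those diets was -0.37 (unadjusted p = 0.0937 in limma, adjusted p = 0.999995). Both high doses were on the same slide. Ordered by mean, the diets ran from control (1.08) through 500 ppm (1.18), 5000 ppm (1.21) and 20 ppm (1.24) to 2500 ppm (1.58), and only the last step was larger than the SD of either neighbour.

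The other probes of Egfr did not show the 2500 ppm difference. Probe 2, on the same RefSeq transcript, differed from control by 0.03 at 2500 ppm, and probe 3, on another RefSeq transcript of the gene, by -0.11. At 5000 ppm the 3 probes gave 0.13, -0.17 and -0.26. When the probes were averaged, the difference at 2500 ppm was 0.14.

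Markers of cell types were read in the same lungs. Of 5 pan-epithelial genes, Cdh1, Krt8 and Krt18 lay above control at 2500 ppm, by 1.12, 0.35 and 0.41, while Epcam and Krt19 differed by -0.48 and -0.29. None passed the threshold, and the lowest adjusted p, that of Cdh1, was 0.136 in limma. Their summed level, on the log2 scale, was 5.79 to 6.12 in the control lungs, 6.23 to 6.37 at 2500 ppm and 6.28 to 6.69 at 5000 ppm, so both high doses lay above all controls. The mean of their log2 values, which weights the 5 genes equally, overlapped: it was 2.62, 2.13 and 2.24 in control mice 1, 2 and 3, 2.51, 2.53 and 2.62 at 2500 ppm, and 2.49, 2.86 and 2.68 at 5000 ppm.

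All 6 alveolar type 2 markers had negative differences at 2500 ppm, with a median of -0.20. So had all 5 endothelium, all 5 T cell and all 4 B cell markers, with medians of -0.31, -0.28 and -0.43. All 3 club cell markers were positive there, with a median of 0.17. Of 5 smooth muscle markers, 4 were positive at 2500 ppm, with a median of 0.59. Their summed level was 7.15 to 8.29 against 6.36 to 7.12 in the controls, the highest being 2500 ppm mouse 3. The mean of their log2 values overlapped: it was 2.71, 2.40 and 3.59 at 2500 ppm, and 2.65, 1.96 and 1.87 in the controls. Of 7 fibroblast markers, 6 were positive at 2500 ppm (median 0.24), and all 7 at 20 ppm (median 0.34). Their summed level was 6.54 to 7.23 at 2500 ppm and 6.24 to 6.49 in the controls. Of 5 alveolar type 1 markers, 4 were positive at 2500 ppm (median 0.16), as were 4 of 5 mesothelium markers (median 0.09). All 5 mesothelium markers were lower at 5000 than at 2500 ppm (median -0.39). The part of these cell types in the values of Egfr and the other genes was not tested. Of 79 marker genes in 16 cell type lists, 78 were measured, 74 were well above background on all 15 arrays, and 0 passed the adjusted threshold in any comparison.

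**Figure D2:**
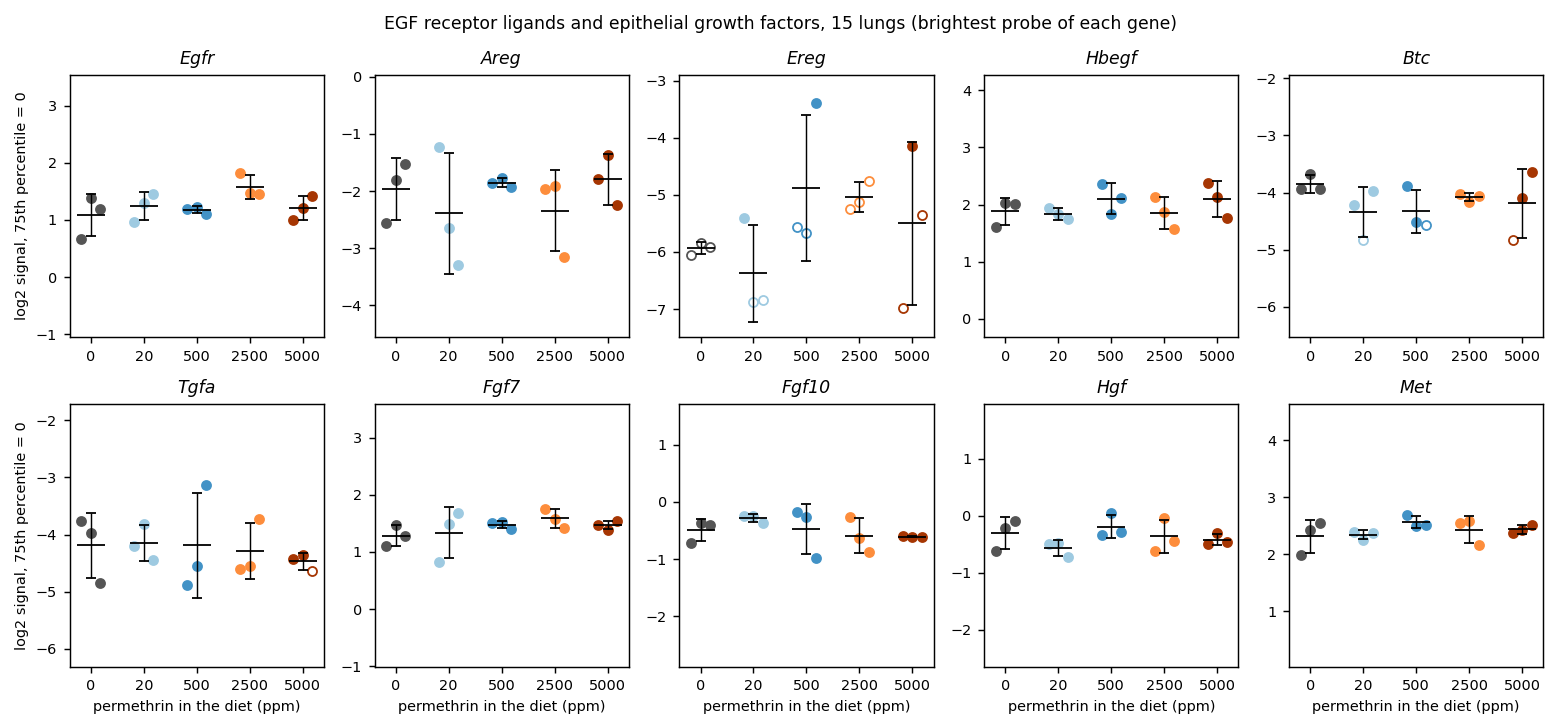
Scaled log2 signal (vertical axis) of each of the 10 genes in every lung by diet in ppm (horizontal axis), for the brightest probe of the gene, with bars for the mean and SD of 3 mice. Every 2500 ppm mouse lies above every control for Egfr, and the 20 ppm mice spread most for Areg. Ereg is mostly not well above background (open points).

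Areg encodes amphiregulin, a ligand of the receptor that immune as well as epithelial cells make. Its probe read -2.56, -1.80 and -1.52 in the control mice, -1.23, -2.65 and -3.29 at 20 ppm, and -1.85, -1.77 and -1.93 at 500 ppm. It read -1.96, -1.91 and -3.15 at 2500 ppm, and -1.79, -1.36 and -2.24 at 5000 ppm. The highest and the lowest lung of all 15 were both 20 ppm mice, mice 1 and 3, and every dosed diet overlapped the controls.

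Areg differed from control by -0.43 ± 0.48 (SE) at 20 ppm, 0.11 at 500 ppm, -0.38 at 2500 ppm and 0.16 at 5000 ppm. No step between diets ordered by mean was larger than the SD of its neighbours. The SD at 20 ppm was 1.05 and at 500 ppm 0.08. The residual SD within a diet was 0.65 for Areg, at the 82.9th percentile of all genes tested, against 0.18 for Met, at percentile 13.7, and a median of 0.32.

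The genes whose values across the 15 lungs lay closest to those of Areg were Usp42, Trim33 and Ppp2r5e. Likeness was measured as the root mean square difference of log2 values after each gene was centred on its own mean, over 19267 gene symbols. It was 0.363 for Usp42, a deubiquitinase gene, 0.382 for Trim33, a ubiquitin ligase gene, and 0.382 for Ppp2r5e, which encodes a regulatory subunit of the phosphatase PP2A. In control mouse 1, the centred values were -0.49 for Areg, -0.65 for Usp42, -0.52 for Trim33 and -0.65 for Ppp2r5e, and in 2500 ppm mouse 3 they were -1.08, -0.21, -0.81 and -1.07 in that order. The likeness is a description of 15 shared arrays and was chosen as the closest of many.

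**Figure D3:**
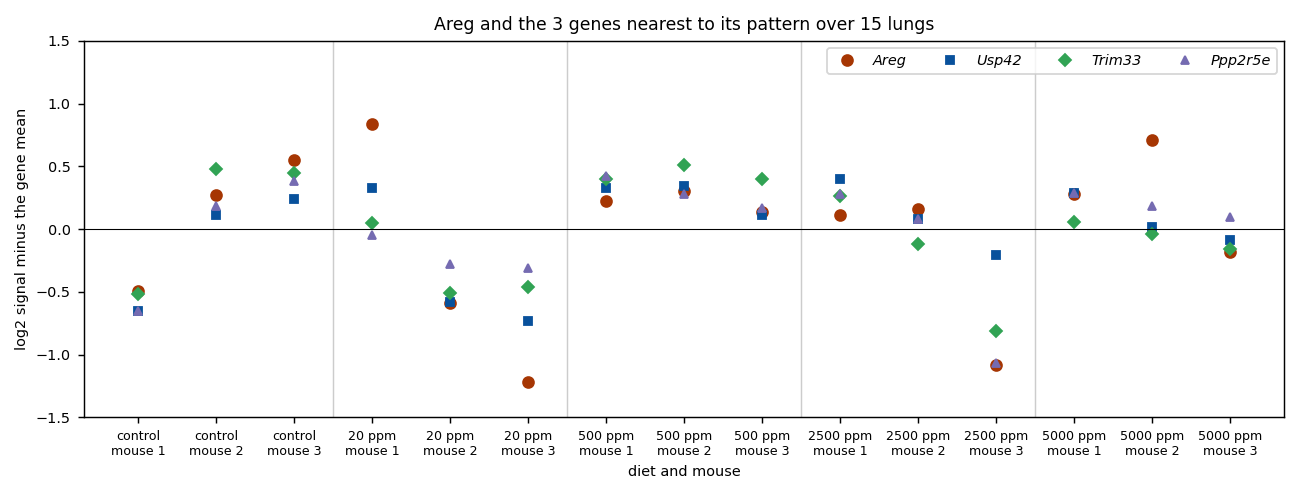
Log2 signal centred on the gene's own mean over 15 arrays (vertical axis) for Areg and its 3 nearest genes, one point per lung and gene (horizontal axis, mice by diet). All 4 genes are low in control mouse 1, and in 2500 ppm mouse 3 Areg, Trim33 and Ppp2r5e lie between -1.08 and -0.81 and Usp42 at -0.21.

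Ereg encodes epiregulin, a ligand that also acts through ErbB4. Its probe was well above background on 3 of 15 arrays, 1 each at 20, 500 and 5000 ppm, and on none of the control or 2500 ppm arrays. It therefore entered none of the main tests. The highest reading was -3.40, in 500 ppm mouse 3, the array with the raised dim end.

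Hbegf encodes the heparin-binding EGF-like growth factor. Its probe read 1.61, 2.03 and 2.01 in the controls, 1.94, 1.83 and 1.74 at 20 ppm, and 2.36, 1.83 and 2.12 at 500 ppm. It read 2.13, 1.87 and 1.57 at 2500 ppm and 2.38, 2.14 and 1.77 at 5000 ppm. The diets overlapped throughout, and the lowest and highest lungs, 2500 ppm mouse 3 and 5000 ppm mouse 1, were both high-dose mice. The difference from control was -0.03 ± 0.21 (SE) at 2500 ppm and 0.21 ± 0.21 at 5000 ppm (adjusted p = 0.993 and 0.970 in limma).

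Btc encodes betacellulin, a ligand of EGFR and ErbB4. Its measured probe, well above background on 12 of 15 arrays, read -3.94, -3.67 and -3.94 in the controls, -4.22, -4.83 and -3.98 at 20 ppm, and -3.89, -4.52 and -4.57 at 500 ppm. It read -4.02, -4.16 and -4.06 at 2500 ppm and -4.83, -4.10 and -3.64 at 5000 ppm. All mice at 20 and at 2500 ppm lay below all controls, while those at 500 and 5000 ppm overlapped them, the highest lung of all being 5000 ppm mouse 3.

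Non-overlap in the lower direction was found for 4.34% of all genes at 20 ppm and for 4.73% at 2500 ppm. The differences of Btc from control were -0.50 ± 0.30 (SE) at 20 ppm, -0.48 at 500 ppm, -0.23 at 2500 ppm and -0.34 at 5000 ppm. Their adjusted p lay between 0.930 and 0.99998 in limma, and the 95% interval at 5000 ppm ran from -0.98 to 0.30. The second Btc probe was well above background on 3 of 15 arrays and was not tested.

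Tgfa encodes transforming growth factor alpha, a ligand made by epithelial cells. Its probe, well above background on 14 of 15 arrays, read -3.76, -3.97 and -4.84 in the controls, -4.20, -3.82 and -4.44 at 20 ppm, and -4.88, -4.55 and -3.14 at 500 ppm. It read -4.60, -4.55 and -3.72 at 2500 ppm and -4.42, -4.35 and -4.64 at 5000 ppm. The lowest and the highest lung were both 500 ppm mice, mice 1 and 3, and all diets overlapped the controls. The difference was -0.10 ± 0.42 (SE) at 2500 ppm and -0.28 ± 0.42 at 5000 ppm. With slide as a fixed term, an alternative in which 500 ppm mouse 3 alone ties the slides together within a diet, it became -1.85 at 5000 ppm (adjusted p = 0.0392 in limma, 4952 genes called).

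Closest to Tgfa across the lungs were Chrd, the gene of the BMP antagonist chordin, at a root mean square difference of 0.231, the gene model Gm35953 at 0.239, and Icosl, the ligand gene of the T cell co-receptor ICOS, at 0.244. Like Tgfa, they were highest in 500 ppm mouse 3, the array with the raised dim end, at -1.24, -2.49 and -2.58. The part of that array in the likeness was not tested. Closest to Btc were 9030622O22Rik (0.225), Gap43, a growth cone protein gene (0.253), and Tpd52l1 (0.255).

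Fgf7 encodes keratinocyte growth factor, a mitogen of alveolar type 2 cells. Its probe read 1.10, 1.47 and 1.28 in the controls, 0.83, 1.49 and 1.69 at 20 ppm, and 1.51, 1.52 and 1.41 at 500 ppm. It read 1.76, 1.58 and 1.42 at 2500 ppm and 1.48, 1.39 and 1.54 at 5000 ppm. The 20 ppm mice spread more widely than any other diet, and each dose overlapped the controls. The difference was 0.30 ± 0.20 (SE) at 2500 ppm and 0.18 ± 0.20 at 5000 ppm (adjusted p = 0.772 and 0.970 in limma).

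Fgf10, which is needed for lung bud outgrowth in the embryo, had 2 measured probes. The brighter read -0.71, -0.36 and -0.41 in the controls, -0.26, -0.63 and -0.87 at 2500 ppm, and -0.60, -0.62 and -0.61 at 5000 ppm. With this probe, the 5000 ppm mice lay within the range of the controls and differed from them by -0.12 ± 0.21 (SE). The dimmer probe gave the opposite sign, 0.33 at 2500 ppm and 0.29 ± 0.43 (SE) at 5000 ppm. At 5000 ppm it read -3.27, -3.26 and -3.28, above the controls at -3.87, -3.30 and -3.52. Non-overlap in either direction was found for 17.9% of all genes at that dose. The dimmer probe differed from control by 0.75 at 500 ppm, where it read -3.71 and -3.26 in mice 1 and 2 and -1.47 in mouse 3. The brighter probe was at its lowest in that same mouse, -0.98, and differed by 0.02 at 500 ppm. Neither probe passed the threshold.

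Hgf, the gene of hepatocyte growth factor, also had 2 measured probes. The brighter read -0.62, -0.21 and -0.09 in the controls, -0.61, -0.04 and -0.44 at 2500 ppm, and -0.49, -0.31 and -0.46 at 5000 ppm. Its dosed mice lay inside the control range at 5000 ppm, and both probes differed from control by -0.11 there. The 20 ppm mice read -0.49, -0.48 and -0.72 and had the lowest mean, -0.56 ± 0.14 (SD, n = 3), which overlapped the controls.

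Met, the receptor of HGF, read 1.99, 2.42 and 2.54 in the controls, 2.39, 2.25 and 2.38 at 20 ppm, and 2.68, 2.49 and 2.52 at 500 ppm with its brighter probe. It read 2.55, 2.58 and 2.17 at 2500 ppm and 2.37, 2.42 and 2.52 at 5000 ppm. All diets overlapped the controls. The difference was 0.12 ± 0.17 (SE) at 2500 ppm and 0.12 at 5000 ppm, and the second probe gave 0.23 and -0.06.

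**Figure D4:**
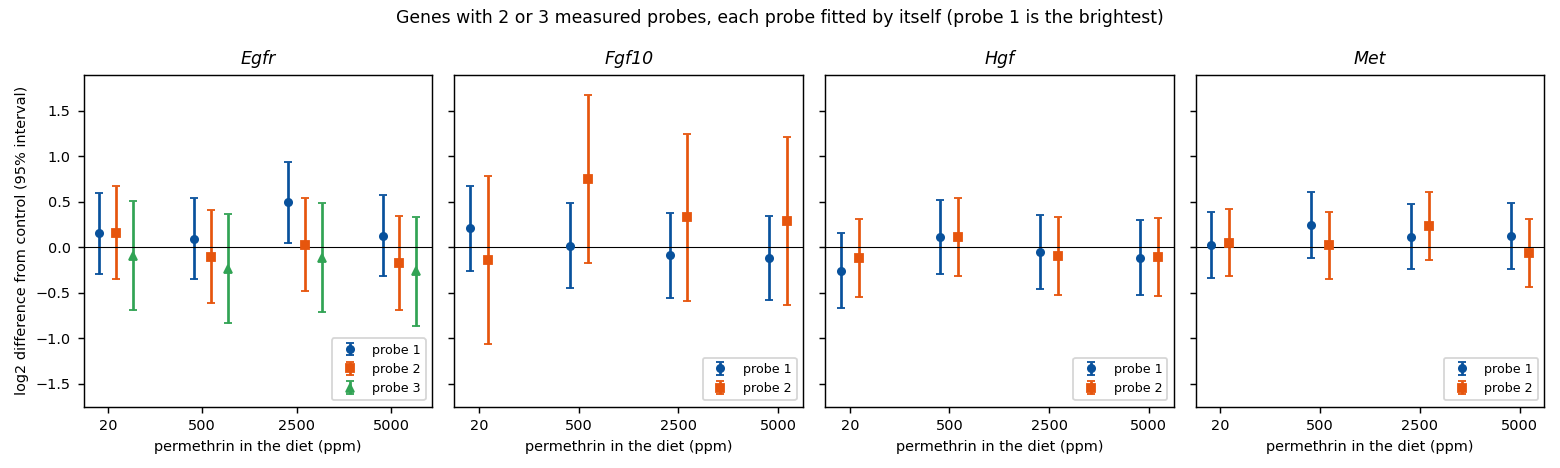
Log2 difference from control (vertical axis) by dose (horizontal axis) for each measured probe of Egfr, Fgf10, Hgf and Met, fitted probe by probe, with 95% intervals from limma and 3 mice per diet. The Egfr probes give 0.50, 0.03 and -0.11 at 2500 ppm, the second Fgf10 probe gives 0.75 at 500 ppm, and the Hgf probes lie close together at 5000 ppm.

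Single lungs were low or high for several of these genes at the same time. Control mouse 1 was the lowest control for 8 of the 9 measured genes, Tgfa being the exception. Mouse 3 of the 2500 ppm diet was the lowest of its diet for 6 of the 9 (Egfr, Areg, Hbegf, Fgf7, Fgf10 and Met). That mouse's array was the one with the most flagged spots, and the cause of the low values was not tested. Mouse 3 of the 500 ppm diet was the highest of all 15 lungs for 4 of the 16 probes, those of Ereg and Tgfa and the dimmer probes of Btc and Fgf10. Such counts were not made over all genes, so they cannot show whether these positions were particular to the genes described here.

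The wider pathway was taken from 6 lists with 67 genes, of which 60 were measured. None of the 60 passed the adjusted threshold of limma in any comparison. At an unadjusted p under 0.05, 7 of 60 (11.7%) passed at 2500 ppm and 2 of 60 (3.33%) at 5000 ppm, against 8.49% and 5.14% of all genes. The list medians given next depend on control mouse 1. For all genes the median at 5000 ppm was 0.07 with that mouse and 0.02 without it. Without it, a setting added after seeing the data, the medians at 5000 ppm were 0.08 for other ErbB receptors and ligands, -0.09 for ligand release and adaptors, 0.01 for ERK genes, -0.11 for FGF genes and 0.25 for HGF activators.

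Among other ErbB receptors and EGF family ligands, 6 of 9 genes were measured, with a median difference of 0.31 at 2500 ppm (0.10 without control mouse 1) and 0.21 at 5000 ppm. Erbb4, Epgn and Nrg3 were below the filter. The largest differences at 5000 ppm were those of Nrg1, the neuregulin 1 gene, at 0.53 ± 0.25 (SE), and of Erbb2, the partner receptor of EGFR, at 0.29. For ligand release and receptor adaptors, all 12 genes were measured and the median was 0.03 at 5000 ppm. There Errfi1, which encodes a feedback inhibitor of EGFR, differed by 0.55 ± 0.45 and Gab1, a docking protein gene of EGFR and MET, by -0.35.

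Targets and feedback genes of ERK signalling had 12 of 14 genes measured and a median of 0.14 at 5000 ppm, with 9 positive. At 2500 ppm the median was -0.11, with 3 of 12 positive, and -0.24 without control mouse 1. All 12 were higher at 5000 than at 2500 ppm, with a median of 0.21, beside 0.03 for all genes. At 5000 ppm Fosl1, an AP-1 subunit gene, was 0.50 above control and Dusp4, a MAP kinase phosphatase gene, 0.30 above, neither past the threshold. The 11 immediate early genes were all measured. Their medians were -0.19 at 20 ppm, 0.12 at 500 ppm, -0.24 at 2500 ppm and -0.20 at 5000 ppm. Of the 11, 0 were positive at 20 ppm, 7 at 500 ppm and 3 at each of the high doses. Control mouse 1 stood apart for these genes, with a mean log2 level of 2.47 against 1.71 and 1.72 in the other controls, and 1.85, 1.77 and 1.55 at 5000 ppm. Without that mouse, the median was -0.26 at 2500 ppm and 0.06 at 5000 ppm. Atf3 differed by -0.74 and Nr4a1 by -0.59 at 5000 ppm, both transcription factor genes that mitogens induce rapidly.

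Among FGF receptors and other FGF ligands, 9 of 10 genes were measured, with a median of 0.03 at 5000 ppm. Fgfbp1, whose product carries FGFs from the matrix, differed by 0.79 ± 0.23 (SE) at 5000 ppm, with an unadjusted p of 0.00427 and an adjusted p of 0.666 in limma. Fgfr1 differed by 0.38. Fgfr2, the receptor gene for FGF7 and FGF10, singled out after its values were seen, differed by -0.52 ± 0.14 at 2500 ppm (adjusted p = 0.246 in limma). At 5000 ppm no gene of this list, Fgfr2 included, lay further below control than -0.26. The array probe of Fgfr2 was not assigned to a splice form.

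Of HGF activators, their inhibitors and MET relatives, 10 of 11 genes were measured, with a median of 0.09 at 5000 ppm. Spint1, a membrane inhibitor of the proteases that activate HGF, differed by 0.60 ± 0.17 (SE) at 5000 ppm, with an unadjusted p of 0.00488 and an adjusted p of 0.673 in limma. Mst1, the gene of the HGF relative that binds the receptor RON, differed by 0.64. Spint1 is expressed mainly in epithelium, and 3 of the 5 pan-epithelial markers also had positive differences at 5000 ppm; their part was not tested.

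**Figure D5:**
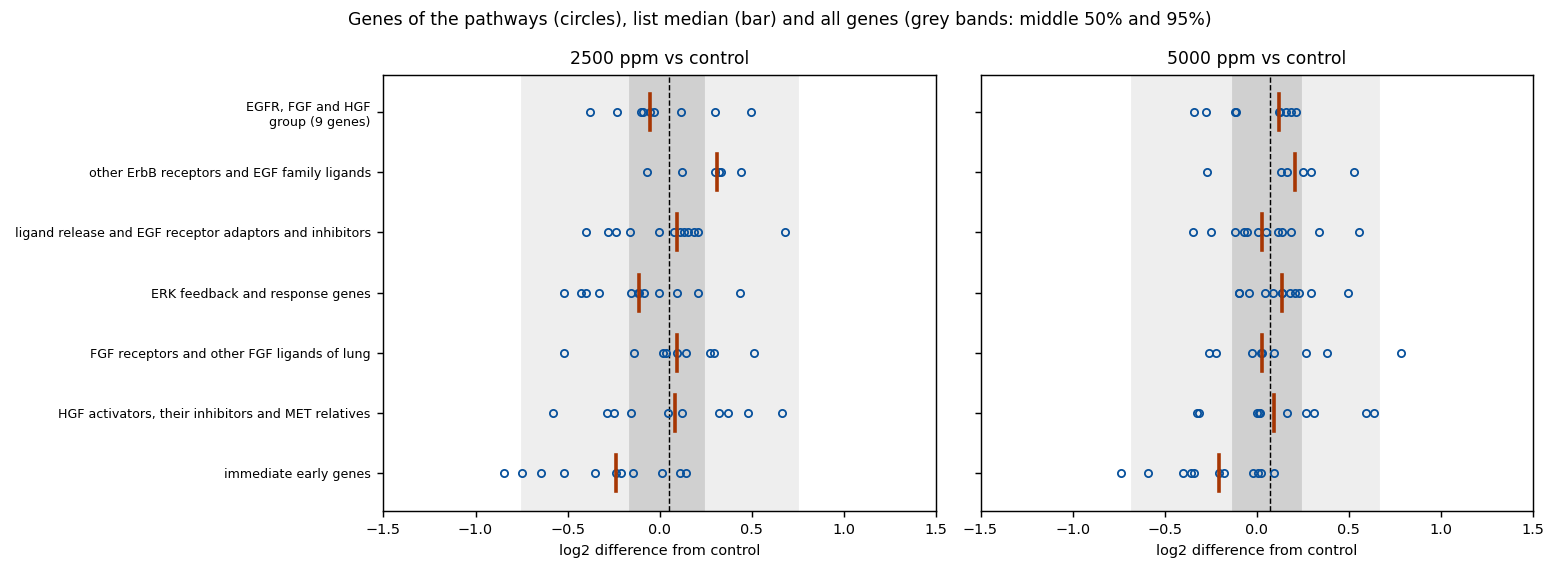
Fitted log2 difference from control at 2500 and 5000 ppm (horizontal axes) for the 9 measured genes (top row) and the 6 pathway lists, with a circle per gene, a bar at the list median, a dashed line at the median of all genes and grey bands for the middle 50% and 95% of all genes. Most genes lie within the band of 95%. The median of the immediate early genes is -0.24 at 2500 ppm and -0.20 at 5000 ppm, and 0.06 at 5000 ppm without control mouse 1.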

How the data were processed

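RNA from 15 mouse lungs (100 ng per array, Cy3) was hybridised to 1-colour Agilent arrays. The deposited scanner files hold the processed intensity of each spot, already background-corrected by Feature Extraction 10.7.3.1, per the file headers. The authors' table of log2 values was deposited as well. Set against the scanner files, it was the log2 processed intensity minus a constant per array, which lay 0.00195 to 0.00536 above the scale used here. How the authors chose that constant is not given in the sources used here.

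The log2 processed intensity minus the array's 75th percentile was used. Spots of a probe were averaged, and probes were kept when well above background on all 3 arrays of at least 1 diet (43154 of 56605). A probe's gene symbol came from its accession, matched to RefSeq for 34675 probes. The kept probe with the highest mean stood for the gene, and other probes were fitted one by one. limma 3.58.1 in R 4.3.3 fitted 1 coefficient per diet over 15 arrays (10 residual degrees of freedom), two-sided, with Benjamini-Hochberg adjustment over 34401 genes and a threshold of 0.05. The trend used the ranks of the diets. The script was tested on simulated data. The alternatives covered the scale, background correction, probe choice, filters, array weights, the slide, the replicate number and each mouse left out in turn.

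The genes named are the 10 growth factor genes, the 2 genes with the largest difference at 5000 ppm in each pathway list, Nqo1, and the 3 genes nearest in pattern to the 3 most variable of the 9 measured. Marker genes of the cell type lists and Fgfr2 were named outside this rule, after their values were seen. Members and lists were chosen with earlier results of these data known.

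Mice carry numbers 1 to 3 in each diet, and the labels do not say that a number pairs mice. Correlations of same-numbered deviations from the diet means were 0.611, 0.26 and 0.165 between control and 20 ppm, all over 0.1, and included negative values in each other comparison. Differently numbered mice of control and 20 ppm ran from -0.468 to 0.375, a range that holds 0.26 and 0.165.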

Additional observations from a re-analysis of the deposited data

How the results depend on the processing

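Of the 36 alternatives beside the reported setting, the one without a filter also fitted Ereg. In all of them the count of these growth factor genes past the threshold stayed at 0, except with slide as a fixed term. There it was 1 at 5000 ppm against control and 1 for the trend, in both cases Tgfa (adjusted p = 0.0392 and 0.0292 in limma), with 4952 and 5494 genes called. This fit rests on 500 ppm mouse 3, the single array that ties the slides together within a diet, and the array with the raised dim end. Fits within a slide, added after seeing the data, also gave 0 members for 20 and 500 ppm against control and for 5000 against 2500 ppm (the arrays compared at 20 ppm and between the high doses are the same, so those differences are equal by construction). With slide as a random block, the estimated correlation was 0.262. The replicate block, in which the mouse number is a term, left 0 members called, and Egfr at 2500 ppm at 0.50 (adjusted p = 0.483 in limma).

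The sign turned in 49 of 605 compared values, and none of those was past the threshold; the cause was not tested. With normexp background correction these were, at 2500 ppm, Btc 0.12, Fgf10 0.00, Hbegf 0.04 and Tgfa 0.05, and at 5000 ppm Btc 0.18, Met -0.01 and Tgfa 0.10. With the mean over probes, Fgf10 was 0.12 at 2500 ppm and 0.09 at 5000 ppm, and Egfr -0.10 at 5000 ppm. With slide as a fixed term, Btc, Fgf10 and Hgf were 0.13, 0.66 and 0.08 at 2500 ppm and 0.02, 0.64 and 0.02 at 5000 ppm, and with slide as a random block Fgf10 was 0.15 and 0.13. With array weights, Hbegf was 0.01 at 2500 ppm, and Areg, Egfr and Met were -0.05, -0.08 and 0.00 at 5000 ppm. Without 500 and 2500 ppm mouse 3, Areg, Fgf10 and Hbegf were 0.02, 0.05 and 0.11 at 2500 ppm. Without control and 20 ppm mouse 1, Met and Tgfa were -0.04 and 0.11 at 2500 ppm, and Areg, Egfr and Met were -0.14, -0.08 and -0.04 at 5000 ppm, as they were without all 4 mice.

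With 1 mouse left out, the differences at 2500 ppm ranged from -0.68 to 0.02 for Areg, -0.28 to -0.14 for Btc, 0.29 to 0.65 for Egfr, -0.25 to 0.05 for Fgf10, 0.21 to 0.40 for Fgf7, -0.17 to 0.11 for Hbegf, -0.21 to 0.07 for Hgf, -0.04 to 0.25 for Met and -0.43 to 0.11 for Tgfa. At 5000 ppm they ranged from -0.14 to 0.38 for Areg, -0.61 to -0.02 for Btc, -0.08 to 0.28 for Egfr, -0.22 to -0.05 for Fgf10, 0.09 to 0.28 for Fgf7, 0.07 to 0.38 for Hbegf, -0.27 to 0.00 for Hgf, -0.04 to 0.23 for Met and -0.60 to -0.06 for Tgfa, and Egfr at 5000 against 2500 ppm from -0.48 to -0.25. Scaling to the array median moved the median of all genes at 500 ppm from 0.12 to -0.11. Btc and Tgfa had no value under a filter that requires all 15 arrays, since their signals are near background.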
